A study of Mus musculus with 4 samples.

Results

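The piRNA pathway and germline DNA methylation genes were examined in whole testes of postnatal day 3 mice with a thyroid hormone receptor mutated in Sertoli cells, set against wild-type testes. The members are a list of 34 genes taken by symbol, of which 33 are among the 22609 genes of the count table and all 33 were tested. Only Henmt1, the methyltransferase that modifies piRNA 3′ ends, has no row under that symbol. By textbook knowledge, 21 of the 33 are restricted to or mainly used by germ cells (19 piRNA factors, the methylation cofactor Dnmt3l and the silencing factor Morc1), and 12 are broadly expressed (4 partner proteins of the pathway and 8 general enzymes of DNA methylation and demethylation). The series compares 2 mutant libraries, labelled with a dominant-negative thyroid hormone receptor alpha 1, with 2 wild-type libraries of the unmutated receptor, to find genes changed directly or indirectly. All animals have a dominant C57BL/6J background and came from crosses of AmhCre mice with carriers of the TRαAMI allele, and the labels do not say whether the wild-type animals also carried AmhCre. This Cre line acts in Sertoli cells, so by design the mutated receptor is made in the cells that surround the germ cells and not in the germ cells themselves. These counts cannot show where it was made. Polyadenylated RNA was counted from the whole organ. A lower value for a germ cell gene can therefore mean fewer germ cells or less RNA per germ cell, and these cannot be told apart.

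PIWI-interacting RNAs (piRNAs) are small RNAs that guide PIWI proteins to transposon transcripts in the germline. Precursor transcripts are cut on the outer mitochondrial membrane and in neighbouring perinuclear granules, where Tudor-domain proteins hold the PIWI proteins together with helicases and nucleases. In fetal and perinatal male germ cells of the mouse, called prospermatogonia, nuclear PIWI complexes also direct new DNA methylation to transposons, which depends on Dnmt3l and the de novo DNA methyltransferases. Other cells keep many of these genes silent by methylating CpG-rich promoters, and use the general enzymes for the methylation of the whole genome.

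RefSeq promoters (GRCm38.p6, a later build than the mm9 of the counts) were at hand for 28 of the 33 members, as windows of 300 bases with 250 before and 50 after each start, and 16 of those 28 are germ-restricted. Piwil2, Tdrd6, Rnf17, Mybl1 and Morc1 had none. The windows below show the E-box CACGTG, a palindrome, in the 4 members that were called lower in mutant testes and hold it, 1 window a gene, and are given 5′ to 3′ on the gene's strand. Capitals mark the E-box and the MYB core TAACNG on either strand, the letters read by Mybl1 and its relatives. The E2F letters GGCGGGAA, also searched on either strand, occur in none of them, and none of the marked motifs overlap.
Fkbp6, chr5:135349995-135350294, minus strand: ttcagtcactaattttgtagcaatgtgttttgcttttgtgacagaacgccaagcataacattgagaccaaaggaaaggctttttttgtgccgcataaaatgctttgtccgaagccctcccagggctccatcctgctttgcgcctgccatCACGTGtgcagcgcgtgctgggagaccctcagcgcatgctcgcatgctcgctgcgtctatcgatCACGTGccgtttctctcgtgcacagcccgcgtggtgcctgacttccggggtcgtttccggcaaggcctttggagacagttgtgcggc
Pld6, chr11:59787608-59787907, minus strand: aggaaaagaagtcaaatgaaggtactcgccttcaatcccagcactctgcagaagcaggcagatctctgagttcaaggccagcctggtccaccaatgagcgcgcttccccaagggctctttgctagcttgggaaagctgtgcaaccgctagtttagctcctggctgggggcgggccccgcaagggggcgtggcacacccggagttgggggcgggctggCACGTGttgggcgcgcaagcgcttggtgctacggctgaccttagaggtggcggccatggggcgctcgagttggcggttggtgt
Mael, chr1:166238695-166238994, minus strand: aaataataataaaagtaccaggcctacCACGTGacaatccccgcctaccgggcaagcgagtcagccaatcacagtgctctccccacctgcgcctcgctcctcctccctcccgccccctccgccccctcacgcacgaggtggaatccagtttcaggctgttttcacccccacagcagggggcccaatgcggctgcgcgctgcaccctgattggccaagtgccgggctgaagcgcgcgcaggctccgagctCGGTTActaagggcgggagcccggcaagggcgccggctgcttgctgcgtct
Mov10l1, chr15:88982744-88983043, plus strand: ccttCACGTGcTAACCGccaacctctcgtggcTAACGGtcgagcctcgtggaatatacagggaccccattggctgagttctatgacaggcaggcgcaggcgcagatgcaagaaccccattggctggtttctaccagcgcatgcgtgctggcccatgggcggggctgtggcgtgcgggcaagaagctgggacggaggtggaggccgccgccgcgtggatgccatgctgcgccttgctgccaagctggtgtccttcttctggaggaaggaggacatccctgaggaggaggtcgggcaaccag

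In the Fkbp6 window the E-boxes begin 101 and 37 bases before the start. The Pld6 E-box begins 33 bases before it and the Mael E-box 223 bases before it. Pld6 has 2 windows, and the one not shown holds no E-box. The Mael window also has a MYB core 1 base before the start. In the Mov10l1 window the E-box begins 246 bases before the start and the MYB cores 239 and 218 bases before it. Of the 16 germ-restricted genes with a window, 9 (56.2%) had an E-box in at least 1 window, against 8.09% of the 27025 genes in the table. Of the 8 members called lower that have a window, 4 hold an E-box and 4 (Asz1, Gtsf1, Tdrd12 and Tdrkh) do not, and of the 8 not called, 5 hold one (Dnmt3l, Piwil1, Stk31, Tdrd1 and Tdrd9). By window, 44.4% of 27 germ-restricted windows held one, against 7.15% of all 32851 windows. These windows were richer in CpG than most, with a median of 18 CpG against 7 over all windows. Among windows with at least 18 CpG, 66.7% of the 15 germ-restricted ones held an E-box, against 11.6% of all 9764. The broadly expressed members had an E-box in 2 of 12 genes, with a median of 23.5 CpG per window. The MYB core stood in 25.9% of germ-restricted windows, against 23.3% of all windows, and by gene in 7 of 16 (43.8%), against 25.9% of all genes. Among windows with at least 18 CpG it stood in 33.3% of the germ-restricted ones, against 14.9% of all. It was present in 4 of the 8 members called lower and in 3 of the 8 not called. The E2F letters occurred in none of the 27 germ-restricted windows, against 2.19% of all windows. A gene can have more than 1 window, and these shares are descriptions of letters with no test.

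Among the germ-restricted members 9 of 21 fell in mutant testes and none rose, while of the 12 broadly expressed members 1 rose and none fell. The test was edgeR's quasi-likelihood F test with p-values adjusted over all 14788 tested genes by the Benjamini-Hochberg method and a threshold of 0.05. Over all tested genes 5.67% were called, 2.52% lower and 3.15% higher. The median log2 fold change (mutant minus wild type) was -0.82 over the germ-restricted members and 0.05 over the broadly expressed ones, against -0.01 over all tested genes. At an unadjusted p below 0.05 the germ-restricted members had 14 lower and 2 higher and the broadly expressed ones 2 lower and 2 higher, where 25.5% of all tested genes passed. The 2 higher germ-restricted members were Tdrd6 and Dnmt3l. These cleared the filter on low counts through the mutant libraries alone, so their direction was built in. Neither DESeq2 nor limma voom called a germ-restricted member higher or a broadly expressed one lower. Both mutant libraries lay below both wild-type libraries in 15 germ-restricted members and above them in 4, where 29.0% and 28.3% of all tested genes did so. Tdrd6 and Dnmt3l are among the 4. The difference between the gene classes is described by these counts and was not tested.

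**Figure D1:**
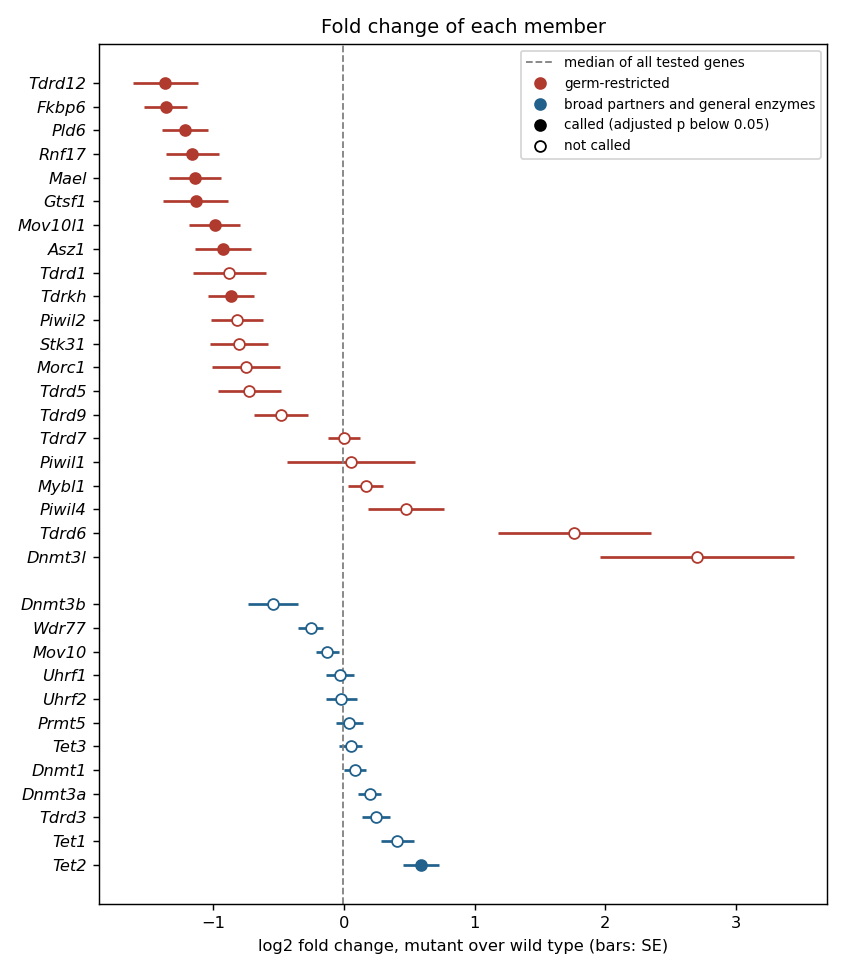
Log2 fold change of each member, mutant over wild type, with its standard error (n = 2 libraries each). Red points are germ-restricted and blue points broadly expressed members, filled where the adjusted p was below 0.05, and the dashed line is the median of all tested genes at -0.01. The 9 filled red points lie between -1.37 and -0.86, and the filled blue point is Tet2 at 0.59.

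Gene counts summed to 11089136 in mutant replicate 1 and 15636832 in mutant replicate 2, against 13228903 in wild-type replicate 1 and 10230512 in wild-type replicate 2. Values of each group are given in that order of replicates. Levels are given as CPM (counts scaled to library size), and levels of different genes are compared as RPKM, which also divides by exon length. The exceptions are sums over lists and percentages of Ddx4 or Dazl, which use CPM and do not rank genes. Markers of testis cells were present: the Sertoli cell hormone gene Amh stood at 704 and 672 CPM in mutant, against 777 and 618 CPM in wild-type libraries, and the Leydig cell enzyme gene Cyp17a1 at 173 and 227 CPM, against 211 and 166 CPM. Markers of Sertoli cells, the cell type of the mutation, summed to 4095 and 4086 CPM in mutant libraries, against 4915 and 5286 CPM in wild-type libraries. Over all tested genes 2.52% were called lower and 3.15% higher, and of these 12 markers 4 fell and 1 rose. Named after their values were seen, these were Cldn11 (log2 fold change -1.22), Aard (-1.01), Dmrt1 (-0.90), which germ cells also use, and Amhr2 (-0.79), and the rise was Ptgds (0.76), called in all fits except that without wild-type replicate 1. Thra, which carries the engineered allele, stood at 237 and 194 CPM in mutant libraries, against 398 and 257 CPM in wild-type libraries (adjusted p = 0.0964 by edgeR). Counts per gene cannot separate its normal and mutant transcripts. Skeletal muscle markers, all 12 of which had positive fold changes, summed to 2567 and 670 CPM in mutant libraries, against 22.6 and 23.1 CPM in wild-type libraries. Some, such as Myog with 0 counts in both wild-type libraries, cleared the filter on low counts through the mutant libraries alone, so their direction was built in. A filter of at least 1 CPM in all 4 libraries kept 6 of the 12. Over all tested genes 7273 of 14788 had a positive fold change. All 8 macrophage markers also had positive fold changes, with sums of 245 and 324 CPM, against 168 and 189 CPM. Wild-type replicate 1 held more germ cell transcript than wild-type replicate 2, and each call of a member that was lost without it is named with its value. Calls in the germ cell, muscle and macrophage marker lists were also lost without it and are not named one by one.

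Fkbp6, a co-chaperone that works with Hsp90 in loading PIWI proteins, stood at 33.9 and 31.5 CPM in mutant libraries, against 97.9 and 69.5 CPM in wild-type libraries. It fell 2.57-fold (log2 fold change -1.36 ± 0.16, SE; adjusted p = 0.0074 by edgeR). Its gene is on chromosome 5, 135767574 to 135825895, minus strand (mm9, as all gene positions here), and its promoter is the one above with a pair of E-boxes. Fkbp6 was the only member called in the full fit and with each of the 4 libraries left out in turn.

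Pld6, the mitochondrial nuclease (Zucchini in the fly) that cuts piRNA precursors, stood at 7.64 and 7.92 CPM in mutant libraries, against 18.1 and 18.1 CPM in wild-type libraries. The wild-type libraries were alike here, although most germ-restricted members were higher in replicate 1. Pld6 fell 2.32-fold (log2 fold change -1.22 ± 0.17, SE; adjusted p = 0.0128 by edgeR). The gene lies on chromosome 11, 59597399 to 59601147, minus strand. Without either wild-type library its log2 fold change was again -1.22, while the adjusted p was 0.0811 without replicate 1 and 0.0627 without replicate 2.

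Asz1, the mitochondrial scaffold of the granules between mitochondria, stood at 13.7 and 12.1 CPM in mutant libraries, against 29.0 and 19.4 CPM in wild-type libraries. Mov10l1, the helicase that feeds precursors to the nuclease, stood at 19.9 and 15.7 CPM, against 40.6 and 29.1 CPM. Asz1 fell 1.9-fold (adjusted p = 0.0468 by edgeR) and Mov10l1 fell 1.98-fold (adjusted p = 0.0303). Asz1 lies on chromosome 6, 18000964 to 18059061, minus strand, and Mov10l1 on chromosome 15, 88813339 to 88885582, plus strand. In both genes the groups did not overlap and wild-type replicate 1 was the highest library. Without that library they stood at -0.60 and -0.72 and were not called (adjusted p = 0.175 and 0.137). Asz1 was also not called by limma voom or with no filter on low counts, with adjusted p-values of up to 0.0631.

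Mael, a protein of the perinuclear granules needed for transposon silencing, was the most abundant germ-restricted member per length, at 28.0 ± 5.82 RPKM in mutant and 61.2 ± 16.2 RPKM in wild-type libraries (SD, n = 2 each). It stood at 49.7 and 37.0 CPM in mutant libraries, against 112 and 76.9 CPM in wild-type libraries. Mael fell 2.2-fold (log2 fold change -1.14 ± 0.20, SE; adjusted p = 0.0221 by edgeR). It lies on chromosome 1, 168131516 to 168168875, minus strand. Gtsf1, a zinc finger partner that speeds the slicing by PIWI proteins, stood at 8.37 and 6.19 CPM, against 18.2 and 12.8 CPM, and fell 2.19-fold (adjusted p = 0.0395). Its position is chromosome 15, 103232836 to 103260901, minus strand. Both lost the call without wild-type replicate 1, at -0.84 each, and Gtsf1 also without wild-type replicate 2 (-1.35) and without mutant replicate 2 (-0.91). With all libraries, Mael was not called by the robust fit (adjusted p = 0.0547), nor Gtsf1 with no filter on low counts (adjusted p = 0.0529).

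Among the Tudor-domain proteins, which bind methylated arginines of PIWI proteins, 3 of 9 germ-restricted members fell, against 2.52% of all tested genes. Tdrd12, a helicase of the cycle that amplifies piRNAs, stood at 3.82 and 3.57 CPM in mutant libraries, against 10.6 and 8.23 CPM in wild-type libraries. The fall was 2.58-fold (log2 fold change -1.37 ± 0.25, SE; adjusted p = 0.0258 by edgeR), from a gene on chromosome 7, 36254117 to 36322764, minus strand. Rnf17, which keeps that cycle in check in later germ cells, stood at 9.65 and 9.32 CPM, against 24.3 and 17.6 CPM, and fell 2.23-fold (adjusted p = 0.0226). It lies on chromosome 14, 57021534 to 57143869, plus strand. Tdrkh, the mitochondrial tether at which piRNA ends are trimmed, stood at 16.7 and 15.3 CPM, against 33.1 and 24.7 CPM, and fell 1.82-fold (adjusted p = 0.0331). Its position is chromosome 3, 94217218 to 94236555, plus strand. All of these lost the call without wild-type replicate 1, at log2 fold changes of -1.16, -0.90 and -0.63, and Tdrd12 also without wild-type replicate 2 (-1.52).

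The other Tudor members were not called. Tdrd1, a binding partner of Piwil2, stood at 15.7 and 12.1 CPM in mutant libraries, against 32.1 and 17.6 CPM in wild-type libraries (log2 fold change -0.88 ± 0.28, SE; adjusted p = 0.0998 by edgeR). Stk31, which joins a Tudor to a kinase domain, stood at 23.0 and 19.3 CPM, against 44.9 and 27.8 CPM (-0.80 ± 0.22; adjusted p = 0.0707). Tdrd5, a granule protein, stood at 11.1 and 8.62 CPM, against 18.9 and 12.8 CPM (-0.72 ± 0.24; adjusted p = 0.11). Tdrd9, a helicase partner of Piwil4, stood at 8.19 and 7.15 CPM, against 11.4 and 9.70 CPM (-0.48 ± 0.21; adjusted p = 0.196). In all of these both mutant libraries lay below both wild-type libraries, as in 29.0% of all tested genes. With the replicate number as a block, Tdrd1 and Stk31 were called lower. Tdrd1 and Stk31 passed with DESeq2 and without mutant replicate 1, and Stk31 also without wild-type replicate 2.

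Tdrd7 and Tdrd6, proteins of the chromatoid body of spermatids, were not called either. Tdrd7, which is also used in the lens, stood at 37.2 and 38.0 CPM in mutant libraries, against 40.5 and 34.7 CPM in wild-type libraries, and the groups overlapped. Tdrd6 had 20 and 19 counts in mutant replicates 1 and 2, against 3 and 7 counts in wild-type replicates 1 and 2. The ratio of its summed counts per depth was 3.44, with an exact 95% interval of 1.69 to 7.73 that covers counting error only. Tdrd6 cleared the filter on low counts through the mutant libraries alone, so a higher mutant level was built into its being tested. Both mutant libraries were higher, but the gene was not called (adjusted p = 0.112 by edgeR), except without mutant replicate 2 (adjusted p = 0.0448).

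The PIWI genes themselves were not called. Piwil2 (MILI), which loads piRNAs in the cytoplasm of perinatal germ cells, stood at 34.1 and 30.1 CPM in mutant libraries, against 68.6 and 43.5 CPM in wild-type libraries. Its log2 fold change of -0.82 ± 0.20 (SE) came close to the threshold (adjusted p = 0.0544 by edgeR). Piwil2 was called lower with a filter of at least 1 CPM in all 4 libraries and with the replicate number as a block. It passed with DESeq2 (adjusted p = 0.004) and without wild-type replicate 2, mutant replicate 1 or mutant replicate 2, while without wild-type replicate 1 it was at -0.45 (adjusted p = 0.168). Piwil4 (MIWI2), the nuclear PIWI protein of prospermatogonia, stood at 3.91 and 3.57 CPM in mutant libraries, against 2.63 and 2.74 CPM in wild-type libraries. Both mutant libraries were higher, by a log2 fold change of 0.47 ± 0.29 (adjusted p = 0.349). Piwil1 (MIWI), which works in meiotic cells and spermatids, had 21 and 14 counts in mutant libraries, against 19 and 11 counts in wild-type libraries, with no order between the groups.

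Mybl1 (A-MYB), the transcription factor that switches on piRNA genes in meiotic cells, stood at 25.2 and 28.8 CPM in mutant libraries, against 23.9 and 24.4 CPM in wild-type libraries (log2 fold change 0.17 ± 0.14, SE; adjusted p = 0.481 by edgeR). The row 4921515J06Rik, which RefSeq lists as an older symbol of Henmt1 and which is not counted among the members, stood at 2.64 and 2.11 CPM, against 7.66 and 3.72 CPM. It was not called (adjusted p = 0.0862).

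**Figure D2:**
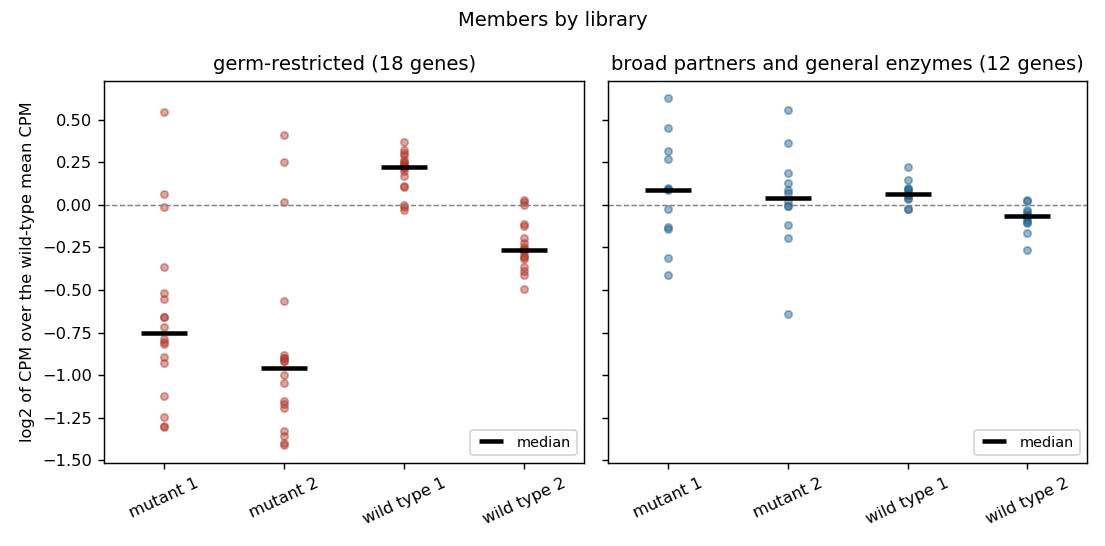
Level of each member in each library, as log2 of its CPM over its wild-type mean CPM, for the 18 germ-restricted members (left) and the 12 broadly expressed members (right) with a wild-type mean of at least 2.5 CPM, a limit chosen after seeing the data that leaves out Piwil1, Tdrd6 and Dnmt3l. Points are genes and bars are medians. The germ-restricted medians were -0.75 and -0.96 in mutant replicates 1 and 2, against 0.22 and -0.26 in wild-type replicates 1 and 2, whose deviations mirror each other because their mean is the zero line.

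Neither germline member of the methylation machinery was called. Dnmt3l, the inactive cofactor that brings the de novo enzymes to chromatin in prospermatogonia, had 24 and 14 counts in mutant libraries, against 3 and 2 counts in wild-type libraries. The count ratio per depth was 6.71 (exact 95% interval 2.64 to 21.8, counting error only). Both mutant libraries were higher and differed from each other at 2.18 and 0.894 CPM. The gene, on chromosome 10 at 77504692 to 77526367, plus strand, was not called (log2 fold change 2.70 ± 0.74, SE; adjusted p = 0.0691 by edgeR), and passed without mutant replicate 2 (adjusted p = 0.00208). Dnmt3l and Tdrd6 cleared the filter on low counts through the mutant libraries alone, so a difference in that direction was built into their being tested. Morc1, an ATPase needed for transposon silencing in the male germline, stood at 12.3 and 9.64 CPM in mutant libraries, against 22.5 and 13.5 CPM in wild-type libraries (log2 fold change -0.75 ± 0.26; adjusted p = 0.122). With a library left out its log2 fold change ran from -1.05 to -0.32.

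Of the methyltransferases and their Uhrf partners none was called by edgeR, DESeq2 or limma voom, with Dnmt3b alone at an unadjusted p below 0.05 by edgeR. Dnmt1, which copies methylation after replication, stood at 173 and 173 CPM in mutant libraries, against 171 and 155 CPM in wild-type libraries (log2 fold change 0.09 ± 0.09, SE; adjusted p = 0.565 by edgeR). Per length it was at 32.9 ± 0.0316 RPKM in mutant and 30.9 ± 2.09 RPKM in wild-type libraries (SD, n = 2 each). Uhrf1, which brings Dnmt1 to newly copied DNA, had a log2 fold change of -0.03 ± 0.11, and its relative Uhrf2 -0.02 ± 0.12, with overlapping groups in both. The de novo enzyme gene Dnmt3a stood at 260 and 236 CPM, against 223 and 210 CPM (0.20 ± 0.09; adjusted p = 0.204). Dnmt3b, the other de novo enzyme, stood at 19.3 and 16.5 CPM, against 30.0 and 21.4 CPM, so that both mutant libraries were lower (-0.54 ± 0.19; adjusted p = 0.128).

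The genes of the Tet enzymes, which oxidise methylated cytosine and so start its removal, had positive fold changes in all 3 cases. Tet2 (chromosome 3, 133126643 to 133207354, minus strand) stood at 28.1 and 26.8 CPM in mutant libraries, against 17.9 and 18.5 CPM in wild-type libraries. It rose 1.51-fold (log2 fold change 0.59 ± 0.14, SE; adjusted p = 0.0463 by edgeR), with little spread within either group. The call was lost without any 1 of the 4 libraries, with log2 fold changes from 0.56 to 0.62, and by DESeq2 (adjusted p = 0.0592) and limma voom (adjusted p = 0.052). Tet1 stood at 32.2 and 30.3 CPM, against 23.1 and 24.0 CPM, and was not called (0.41 ± 0.13; adjusted p = 0.0951). Tet3 stood at 109 and 103 CPM, against 106 and 97.8 CPM, with overlapping groups.

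Broadly expressed partners of the pathway were not called either. Prmt5 and Wdr77 form the enzyme that methylates arginines of PIWI proteins. Prmt5 stood at 86.6 and 80.4 CPM in mutant libraries, against 86.7 and 75.1 CPM in wild-type libraries, and Wdr77 at 112 and 121 CPM, against 148 and 130 CPM (log2 fold change -0.25 ± 0.10, SE; adjusted p = 0.154 by edgeR). Mov10, the widely expressed relative of Mov10l1, stood at 95.9 and 96.7 CPM, against 110 and 101 CPM (-0.13 ± 0.09; adjusted p = 0.401). Tdrd3, a Tudor protein that serves a topoisomerase outside the pathway, stood at 50.8 and 46.4 CPM, against 41.8 and 39.9 CPM (0.25 ± 0.11; adjusted p = 0.196).

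The fall of the germ-restricted members went together with that of germ cell markers. Summed over the 21 members, the level was 340 and 299 CPM in mutant libraries, against 651 and 465 CPM in wild-type libraries. A list of 20 germ cell markers summed to 453 and 389 CPM, against 978 and 709 CPM, and 11 of them fell, against 2.52% of all tested genes. By limma voom 8 fell, and, as with the members, calls were lost without wild-type replicate 1. The median log2 fold change of this list was -1.26, and no marker was at 0 in all libraries. The order of the 4 libraries was the same in both sums. Of the 21 members 17 were higher in wild-type replicate 1 than in wild-type replicate 2, against 7462 of all 14788 tested genes. Likewise 18 of 21 were higher in mutant replicate 1 than in mutant replicate 2, against 7463 of all tested genes. The broadly expressed members summed to 1142 and 1124 CPM, against 1159 and 1045 CPM. Of 15 proliferation markers none was called by edgeR, DESeq2 or limma voom, with 1 at an unadjusted p below 0.05 by edgeR, and they summed to 2226 and 2419 CPM, against 2502 and 2235 CPM. The part of these cell markers in the result was not tested. Muscle markers were highest in mutant replicate 1 (2567 CPM) and were also higher in mutant replicate 2 (670 CPM) than in the wild-type libraries. Their part in the result was not tested either.

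**Figure D3:**
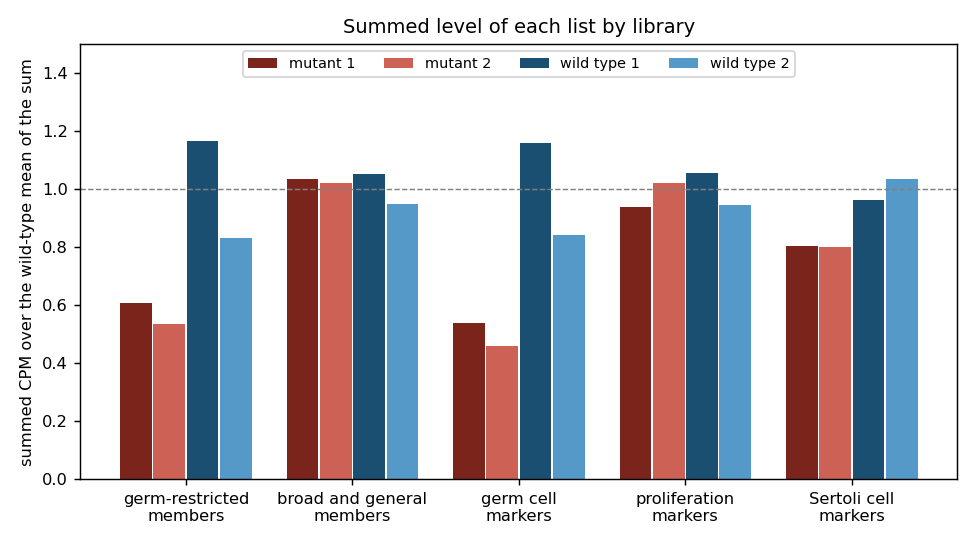
Summed CPM of each list in each library, divided by the mean of the wild-type sums; bars start at 0 and the dashed line is the wild-type mean. The germ-restricted members (340 and 299 CPM in mutant, 651 and 465 CPM in wild-type libraries) and the germ cell markers (453 and 389 CPM in mutant, 978 and 709 CPM in wild-type libraries) share the order of libraries, while the mutant bars of the other lists stay nearer to 1.

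Set against a single germ cell gene, Ddx4 or Dazl, the place of each member depends on the fall of that gene as well. A member that kept its level, such as Tdrd7, comes out as higher in mutant libraries against either. How many of all tested genes would do so was not computed. Ddx4, the germ cell helicase (VASA homolog) that itself works in the pathway, fell 1.74-fold (63.6 and 49.5 CPM in mutant, 110 and 84.7 CPM in wild-type libraries; adjusted p = 0.0304 by edgeR). The percentages here are of CPM with no correction for exon length, so they compare libraries and do not rank genes. As a percentage of Ddx4 in the same library, 7 of 21 germ-restricted members were lower in both mutant libraries, 8 were higher in both and 6 overlapped. Tdrd6 and Dnmt3l, which cleared the filter on low counts through the mutant libraries alone, are among the 8. Fkbp6 was at 53.2% and 63.5% of Ddx4 in mutant, against 88.6% and 82.1% in wild-type libraries. Piwil4 was at 6.15% and 7.22%, against 2.38% and 3.24%. The germ cell marker Dazl, which codes for an RNA-binding protein, fell 2.54-fold, at 112 and 107 CPM in mutant, against 328 and 228 CPM in wild-type libraries. As a percentage of Dazl 18 members were higher in both mutant libraries, none was lower and 3 (Fkbp6, Pld6 and Tdrd12) overlapped. Fkbp6 stood at 30.2% and 29.3% of Dazl in mutant, against 29.8% and 30.5% in wild-type libraries. The members placed above or below the wild-type range thus differed between Ddx4 and Dazl as the denominator. With 2 libraries a group an exact two-sided permutation test of such a ratio cannot go below p = 0.333, so none is given.

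Further genes of the pathway came from a list of 15, of which 12 are in the table and 11 were tested, with a median log2 fold change of -0.38. Over all tested genes 2.52% were called lower, and of these 11 genes 2 fell. These were Ddx4 and Tex19.1, a germ cell protein that restrains transposons, which stood at 33.0 and 31.3 CPM in mutant, against 101 and 54.5 CPM in wild-type libraries (2.43-fold lower; adjusted p = 0.0291 by edgeR). Ddx4 was no longer called when a wild-type library was left out, at -0.59 without replicate 1 and -0.97 without replicate 2, and neither was Tex19.1 without wild-type replicate 1, at -0.76, or by the robust fit (adjusted p = 0.114). Of 24 tested genes for repressive chromatin, methyl-CpG binding and base repair, edgeR, DESeq2 and limma voom called none, with 4 at an unadjusted p below 0.05 by edgeR and a median of -0.03. The smallest p-values belonged to Cbx5, heterochromatin protein 1 alpha, at 392 and 384 CPM, against 330 and 319 CPM (adjusted p = 0.0971), and to Hells, a remodeller needed for DNA methylation, at 104 and 116 CPM, against 158 and 124 CPM (adjusted p = 0.124).

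Of the 9 calls 8 were lost without wild-type replicate 1. Then 1 germ-restricted member (Fkbp6, log2 fold change -1.09, adjusted p = 0.039 by edgeR) was called lower and the median over the germ-restricted members was -0.41. Without wild-type replicate 2 there were 8 and the median was -1.10, without mutant replicate 1 there were 13, and without mutant replicate 2 there were 9 lower and 2 higher. The sign of the fold change was kept in all 4 of these fits by each of the 9 called members. The members called higher without mutant replicate 2 were Tdrd6 and Dnmt3l. Both cleared the filter on low counts through mutant libraries alone, so their direction was built in.

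**Figure D4:**
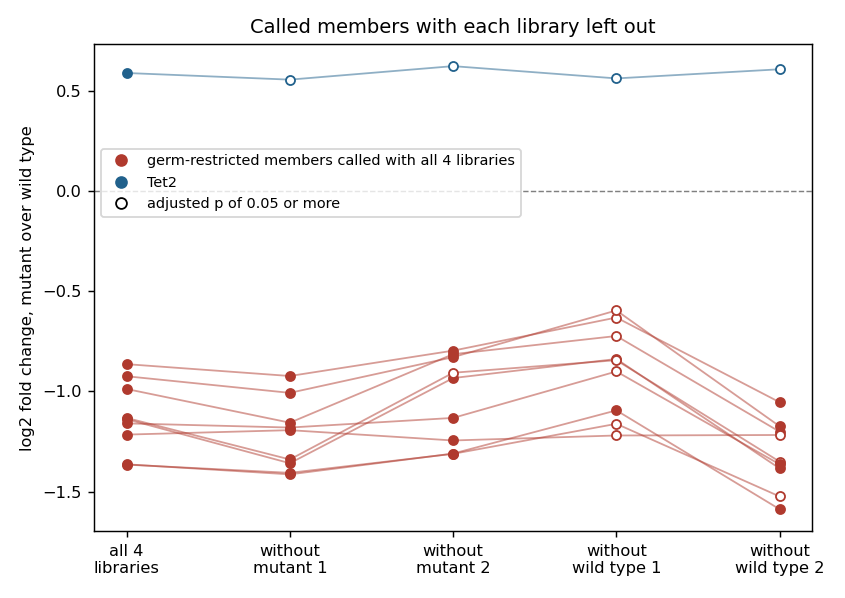
Log2 fold change, mutant over wild type, of the 9 called germ-restricted members (red) and Tet2 (blue) with all 4 libraries and with each library left out; open points have an adjusted p of 0.05 or more. With wild-type replicate 1 left out the red points lie between -1.22 and -0.60, nearer to 0 than with all libraries except for Pld6, and Tet2 lies between 0.56 and 0.62 throughout.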

How the data were processed

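Polyadenylated RNA of whole testes was read from one end, per the labels' protocols. The submitters' processing notes name CASAVA 1.8.1, TopHat 1.4.0, HTSeq, DESeq2 and mm9. The authors deposited 1 table of raw counts per gene, handled under the unit expected counts because lines below the genes hold percentages. Gene values are whole numbers that sum to the table's own totals, so rounding changed nothing. Reads in no gene were 13.8% to 17.3% and ambiguous reads 0.602% to 0.726% of counted reads, and stayed out of library sizes. Not given in the sources used here are the annotation, counting mode and strand, so overlapping or antisense genes cannot be separated. Nothing says that the libraries came from separate animals, so the spread behind each p-value is that between libraries and may be technical.

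Genes passed edgeR's default filter (minimum count 10, minimum total 15). Counts were tested with edgeR 4.0.16 (R 4.3.3) by a two-sided quasi-likelihood F test, with TMM scaling, genotype alone, and robust and legacy options off, checked on simulated data. The SE is the fold change over the square root of F. CPM uses TMM-scaled library sizes, and RPKM the union of exons in GENCODE M1 (mm9). Intervals and bounds on counts cover counting error only. Alternatives were DESeq2 1.42.0, limma 3.58.1 voom, other scalings, fits and filters, a replicate block, and each library left out, when a lone library is assumed to vary like the other group. The members and lists were chosen with earlier results of these data known. All members are named, with up to 4 called genes, or the 2 with the smallest p, from each further list.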

Additional observations from a re-analysis of the deposited data

How the results depend on the processing

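The 9 falls among germ-restricted members became 7 to 12 under the settings that keep all libraries and 1 to 13 with a library left out, and their median log2 fold change then ran from -1.10 to -0.41. No germ-restricted member was called higher, except Dnmt3l with the replicate block (1 member), and 0 to 2 were with a library left out. The single call among broadly expressed members, Tet2, became 0 with DESeq2, limma voom, no filter on low counts and the replicate block, and 0 with each library left out, and their median ran from -0.035 to 0.15. Over all genes, 466 were called higher and 373 lower. With limma voom 309 were called higher, and with no filter 282 higher and 218 lower. With a library left out the counts ran from 34 to 818 higher and from 40 to 477 lower. Members near 0 changed sign. Piwil1 was at -0.017 with limma voom and ran from -0.51 to 0.58 with a library left out. Tdrd7 was at 0.0049 with DESeq2, 0.0035 with median ratio scaling, 0.013 with upper quartile scaling, 0.0015 with the stricter filter and 0.0052 with the block, and from -0.11 to 0.11 with a library left out. Ranges with a library left out were -0.059 to 0.15 for Prmt5, -0.14 to 0.070 for Uhrf1, -0.17 to 0.15 for Uhrf2 and -0.011 to 0.11 for Tet3. The cause of these changes was not tested. Same-numbered libraries share only a number in the labels, and their deviations correlated at -0.03 over 14788 genes. With the replicate number as a block 12 germ-restricted members were called lower, in place of 9. Members with few counts (Dnmt3l, Tdrd6, Piwil1 and Piwil4) are limited by depth.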
